A study of Mus musculus with 12 samples.

Results

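The immediate early genes described here are Fos, Fosb, Jun, Junb, Jund, Egr1, Ier2, Ier3, Atf3 and Dusp1, 10 genes chosen by their GENCODE mouse gene names. They account for 30 of the 213131 exonic and intronic entries of the deposited table, 17 exonic and 13 intronic, and for 10 of its 71661 units, where a unit is a gene or a transcript with no gene in the annotation. An exonic value was present for 9 of the 10 genes, and Fosb was listed at 0 in every library. The cells were mouse embryonic stem cells (mESCs) of the XY line DTCM23/49, grown on gelatin in medium with serum and leukemia inhibitory factor. The uridine analog 4-thiouridine (4sU), which enters RNA as it is transcribed, was added to 200 µM for 15, 30 or 60 min, and the RNA that carried it was biotinylated and pulled down. This gave 6 libraries of labeled RNA and 6 of total RNA, 2 per fraction and labeling time, from 2 biological replicates that descend from a single culture divided and passaged apart. All 12 libraries came from cells that had received 4sU and no added stimulus, and neither cells without 4sU nor a pull-down from them were analysed here.

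Immediate early genes are transcribed within minutes of a growth factor, serum or stress signal, from transcription factors that are already present in the cell. Signals through the ERK, JNK and p38 kinases act on SRF with its ELK partners and on CREB at their promoters. Their mRNAs are short-lived, in part because AU-rich elements in the 3′ UTR are bound by proteins that recruit deadenylases, and in mESCs growing in serum the ERK pathway is active at a basal level.

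Fos, Fosb, Jun, Junb and Jund encode subunits of the dimeric transcription factor AP-1, and Atf3 encodes a stress-induced factor of the same leucine zipper superfamily. Egr1 encodes a zinc finger factor that follows ERK activity. Dusp1 encodes a nuclear phosphatase that inactivates the MAP kinases, Ier3 encodes a small protein linked to cell survival, and Ier2 encodes a small nuclear protein. The genes are short. On the mm9 build, Fos (ENSMUSG00000021250) spans chr12:86814840-86818223 (plus strand) and Dusp1 (ENSMUSG00000024190) spans chr17:26642535-26645464 (minus strand). Ier2 (ENSMUSG00000053560) occupies 1522 bases in a single exon at chr8:87185230-87186751 (minus strand). Ier3 (ENSMUSG00000003541) is found at chr17:35958629-35959868 (plus strand) and has 1 intron of 109 bases. Jun (ENSMUSG00000052684) is found at chr4:94715725-94718913 (minus strand). The deposited transcripts of Jun, Junb, Jund and Ier2 each have 1 exon, so that no intronic entry existed for these 4 genes. The longest of the 10 genes was Atf3, with 11061 intronic bases in its coding transcript, against 940 in that of Dusp1 and 678 in the shorter intron set of Egr1.

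The 3′ UTRs hold the elements for which these mRNAs are known. The pentamer ATTTA was searched on the transcribed strand only, with overlapping matches counted, in the longest 3′ UTR of each gene in GENCODE M1. It was found in 9 of the 10 members, and 61.3% of the 19915 genes with a 3′ UTR held it. Ier3 held 5 copies in 613 bases, and 97.4% of 3′ UTRs of similar length, within 20%, held fewer. Dusp1 held 4 in 690 bases, with 92.4% of similar 3′ UTRs holding fewer, and Fos held 4 in 815 bases, with 89.9% holding fewer. Egr1 held 2 in 1216 bases, close to the middle of 3′ UTRs of its length, and Ier2 held none in 755 bases. Jun held 4 in 1233 bases, with 77.8% holding fewer, and Junb 2 in 483 bases, with 80.0%. Atf3 held 3 in 1186 bases, with 65.7% holding fewer, Jund 1 in 533 bases, with 49.1%, and Fosb 1 in 2120 bases, with 10.3%. The longer element TTATTTATT, which overlaps the pentamer, was found in 2 members, once in Fos and at 2 positions in Dusp1, and in 6.52% of all 3′ UTRs. The 30 bases around the densest pentamers are shown for the 4 members with 4 or more copies, the highest counts and not always the highest for the length. The pentamer is in capitals, the sequence is that of the transcribed strand on mm9, and positions are chr12:86818052-86818081 on the plus strand for Fos, chr17:26643102-26643131 on the minus strand for Dusp1, chr17:35959430-35959459 on the plus strand for Ier3 and chr4:94715898-94715927 on the minus strand for Jun.
Fos: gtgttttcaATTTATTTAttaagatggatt
Dusp1: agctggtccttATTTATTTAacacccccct
Ier3: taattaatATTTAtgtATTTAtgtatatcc
Jun: atcATTTAtaatcataggaaagATTTAgta
In Fos and Dusp1 the pentamers overlap and form the longer element, whereas in Ier3 and Jun the copies are separated by other bases. A match describes the letters of the window and not a site that is bound.

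The deposited values were treated as abundances normalized for length, which the sources used here do not state. Comparisons between genes, and of introns with exons, rest on this reading, under which 1 TPM corresponds to 19.99 of these units. Exons and introns together sum to nearly the same total in each library. A ratio of labeled to total RNA therefore compares a gene with the average RNA of its library and is not the fraction of its molecules that carried 4sU. Values of 1 or less are missing and were taken as 0, and sequencing depth cannot be read from the values, so that no counting error was available. Introns made up 6.53% to 7.41% of the signal of total RNA and 6.99% to 14.8% of labeled RNA, and the highest shares were those of the labeled libraries of replicate 1 at 15 and 60 min (14.8% and 13.9%). Those of replicate 2 at 15 and 60 min, with shares of 7.24% and 6.99%, lay within the range of total RNA. The part of these 4 libraries in the results below was not tested beyond leaving them out. All 8 embryonic stem cell markers passed the filter on low values, with a summed abundance of 17903 to 30120 in labeled and 17531 to 25526 in total RNA. Of 8 markers of differentiating cells, 7 were in the table and only Pax6 passed the filter (log2 fold change 0.17, adjusted p = 0.889 by limma with Benjamini-Hochberg adjustment). Of 6 fibroblast markers, 2 passed, Col3a1 and Postn were listed at 0 in all libraries, and the sum was 228 to 446 in labeled and 490 to 556 in total RNA, of which most was Vim. Both fractions come from RNA of the cells given 4sU, so that a difference between them is not a count of cells of a type. As these are bulk samples, the cells that held a marker RNA cannot be told.

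In total RNA, the levels of the 10 genes spanned more than 2 orders of magnitude. Dusp1 had the highest abundance, 491 ± 87.6 units (SD, n = 6), and Egr1 the next, 306 ± 54.7, and Dusp1 was above Egr1 in 6 of 6 total libraries. Ier2 followed at 22.4 ± 3.99, below Egr1 in 6 of 6 libraries. From Ier2 downward the order of neighbors rested on smaller margins. Ier3, at 17.9 ± 8.89 units, was below Ier2 in 4 of 6 total libraries, and Fos, at 9.25 ± 7.34, was below Ier3 in 5 of 6. Jun stood at 6.89 ± 0.873 and was below Fos in 3 of 6 libraries, so the order of this pair was not resolved. Jund (6.37 ± 2.40), Atf3 (4.82 ± 1.84) and Junb (2.85 ± 1.82) came last among the genes with a value, and each exceeded the next of these in 4 of 6 libraries. The AP-1 subunits were thus all below the 2 most abundant members by more than an order of magnitude.

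**Figure D1:**
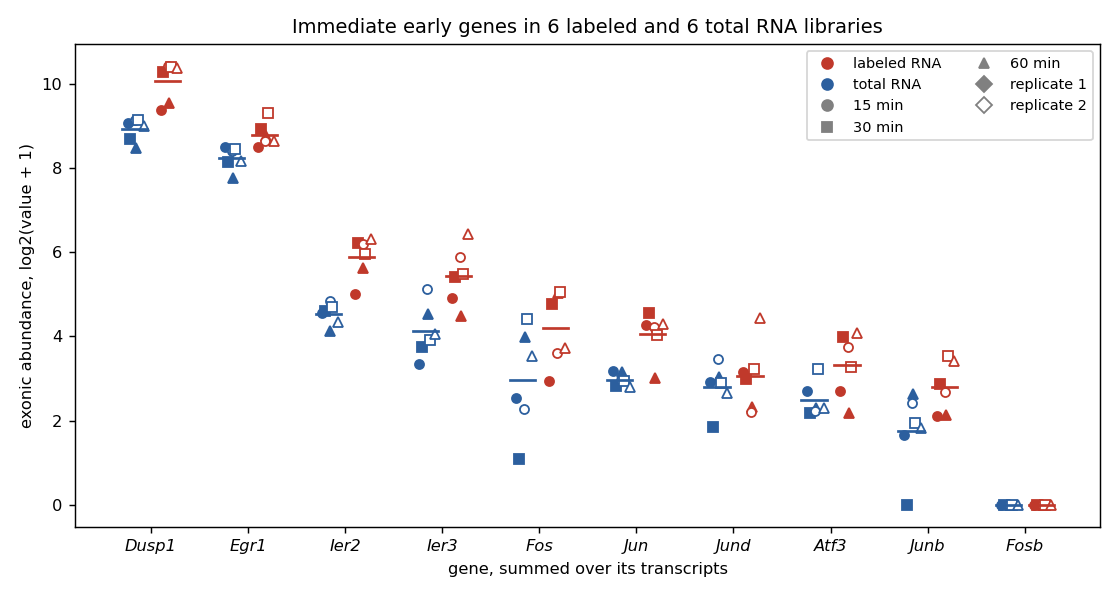
Exonic abundance of the 10 immediate early genes, as log2(value + 1) of the deposited units on the vertical axis, in each of 6 labeled (red) and 6 total (blue) RNA libraries. Symbols give the labeling time, filled and open symbols replicates 1 and 2, and bars the mean of each fraction. The labeled libraries of Dusp1 and Ier2 all lie above their total libraries, and Fosb lies at 0 throughout.

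Labeled RNA was compared with total RNA to find which transcripts were enriched among newly made RNA. The mRNAs of Dusp1, Ier2 and Egr1 were higher in labeled RNA. Ier3 was called higher only with the filter on low values, which it passed through its labeled libraries. Dusp1 was 2.28-fold, Ier2 2.72-fold, Egr1 1.47-fold and Ier3 2.61-fold above total RNA in the ratio of mean abundances. Among the 25318 units tested, 6.38% were higher in labeled RNA and 9.49% were lower. The median log2 fold change of all units was -0.01. The other 6 genes did not pass the filter, a mean exonic value of at least 20 over the 12 libraries, and the mean of Ier3 in total RNA was 17.9.

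Dusp1 ranged from 354 to 568 units in total RNA, with a median of 522, and from 670 to 1374 in labeled RNA, with a median of 1292. No labeled library overlapped the total libraries, which held for 3.33% of all units tested. The difference was a log2 fold change of 1.15 with an SE of 0.21 (limma with labeling time as a covariate, adjusted p = 0.00587 after Benjamini-Hochberg adjustment), which lay above that of 95.1% of units. Labeled RNA was higher in 6 of 6 pairs of libraries of the same time and replicate, as it was in 8.07% of all units. The lowest labeled values of Dusp1, 670 at 15 min and 743 at 60 min, were those of the replicate 1 libraries with the highest intronic shares. Without these libraries the log2 fold change was 1.46 (limma, Benjamini-Hochberg adjusted p = 0.00214), and without those of replicate 2 at the same times it was 0.92 (limma, Benjamini-Hochberg adjusted p = 0.0116).

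Ier2 ranged from 16.5 to 27.6 units in total RNA, with a median of 23.0, and from 31.0 to 78.6 in labeled RNA, with a median of 67.0. All 6 labeled libraries were again above all 6 total libraries. Its log2 fold change of 1.36 (SE 0.25; limma, Benjamini-Hochberg adjusted p = 0.00531) lay above that of 96.8% of units. The labeled library of replicate 1 at 15 min was the lowest of its fraction for Ier2 too, and without it and the 60 min library of replicate 1 the log2 fold change was 1.64 (limma, Benjamini-Hochberg adjusted p = 0.00332). Without the corresponding libraries of replicate 2 it was 1.09 (limma, Benjamini-Hochberg adjusted p = 0.00948).

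Egr1 ranged from 216 to 362 units in total RNA, with a median of 312, and from 360 to 633 in labeled RNA, with a median of 414. The fractions met at the lowest labeled library (replicate 1, 15 min), which fell just below the highest total library, and labeled RNA was higher in 5 of 6 pairs. The log2 fold change was 0.55 (SE 0.15; limma, Benjamini-Hochberg adjusted p = 0.0280), above that of 83.5% of units. With replicate as a block the call was lost (limma, Benjamini-Hochberg adjusted p = 0.0657) and with the numbers crossed at 60 min it was kept (limma, Benjamini-Hochberg adjusted p = 0.0319). It was also lost on leaving out any 1 of 5 libraries, the 4 libraries at 30 min (limma, Benjamini-Hochberg adjusted p from 0.0580 to 0.0738) or the total library of replicate 1 at 60 min (limma, Benjamini-Hochberg adjusted p = 0.0605).

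Ier3 ranged from 9.18 to 33.8 units in total RNA, with a median of 14.8, and from 21.5 to 85.3 in labeled RNA, with a median of 42.8. The fractions overlapped, since 1 total library (replicate 2, 15 min) reached 33.8 and labeled RNA of replicate 1 after 60 min, at 21.5, was the only labeled library below its own total library. The log2 fold change was 1.32 with an SE of 0.39 (limma, Benjamini-Hochberg adjusted p = 0.0400). The call was lost without the filter (limma, Benjamini-Hochberg adjusted p = 0.0543) and on leaving out any of 9 single libraries, with adjusted p up to 0.0944. Without the replicate 2 labeled libraries of 15 and 60 min the adjusted p was 0.0958. It remained without the replicate 1 labeled library of 15 or of 60 min or the replicate 2 total library of 15 min. With either replicate alone none of the 4 genes was called, but 3 labeled against 3 total libraries called only 0 and 5 of all units, so that this says nothing of their stability. The fold change of each stayed positive.

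The AP-1 subunits and Atf3 lay at lower levels, where the log2(value + 1) scale understates a difference, and they were tested only when the filter was dropped. Without a filter 51270 units were tested, of which 4.27% were higher in labeled RNA and 3.67% were lower. Jun was the only member called in addition to Dusp1, Ier2 and Egr1. Its total libraries were tightly grouped, from 5.95 to 8.01 units with a median of 6.74, and its labeled libraries ranged from 7.12 to 22.7 with a median of 18.0. A single labeled library, replicate 1 at 60 min, lay within the range of total RNA, and the other 5 were above it. The log2 fold change of Jun was 1.09 (SE 0.29; limma without filter, Benjamini-Hochberg adjusted p = 0.0410), and the mean difference was 0.63 with a pseudocount of 10 in place of 1.

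Fos ranged from 1.13 to 20.3 units in total RNA, with a median of 7.67, and from 6.63 to 32.5 in labeled RNA, with a median of 19.3. Labeled RNA was higher in 6 of 6 pairs, as in 8.02% of units without a filter, but the fractions overlapped widely, as the values within each fraction differed by several fold. Its log2 fold change of 1.22 (SE 0.52) did not pass the test (limma without filter, Benjamini-Hochberg adjusted p = 0.180). The coding transcript of Fos contributed 42.4% of the exonic signal in labeled and 37.1% in total RNA, and the rest came from 3 noncoding transcripts of the locus.

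Junb had a log2 fold change of 1.04 (limma without filter, Benjamini-Hochberg adjusted p = 0.205), with labeled values from 3.34 to 10.6 and total values from 0 to 5.20 units, labeled RNA being higher in 5 of 6 pairs. Atf3 was similar, with a log2 fold change of 0.84 (limma without filter, Benjamini-Hochberg adjusted p = 0.209), labeled values from 3.52 to 15.9 and total values from 3.50 to 8.30, and labeled RNA higher in 5 of 6 pairs. Jund, the AP-1 subunit known for steady rather than induced expression, had the smallest difference of these genes, 0.24 (limma without filter, Benjamini-Hochberg adjusted p = 0.770). Its labeled libraries ranged from 3.60 to 20.7 units and its total libraries from 2.63 to 9.97. The fractions of all 3 genes overlapped. For Jun, Junb, Jund, Ier3 and Atf3 alike, labeled RNA was lower than total RNA in the pair of replicate 1 at 60 min.

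**Figure D2:**
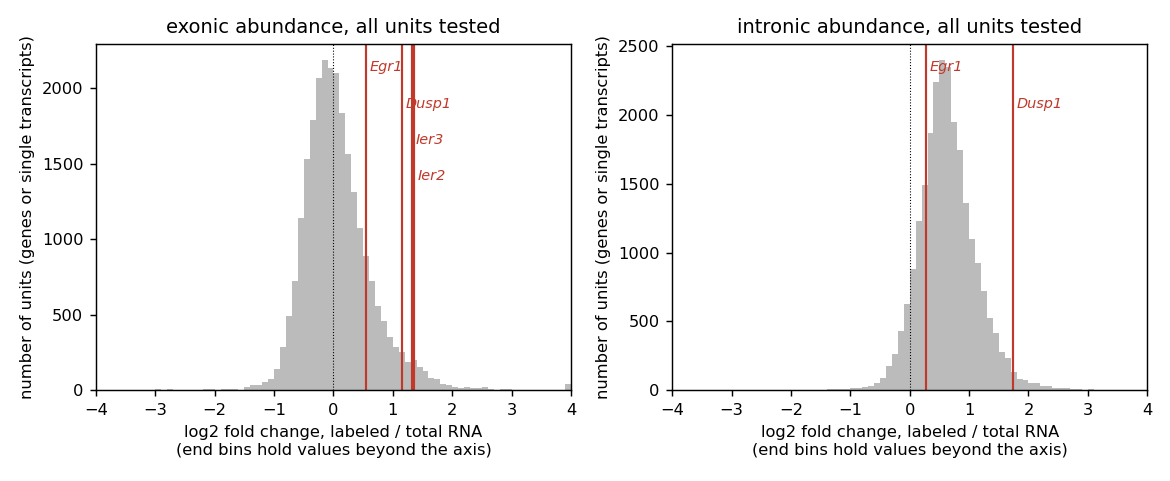
Number of units (genes or single transcripts) by log2 fold change of labeled against total RNA from limma, for exonic (left) and intronic (right) abundance, with the tested immediate early genes as red lines. The outermost bins collect values beyond the axis. Dusp1, Ier2 and Ier3 lie in the upper tail of the exonic distribution and Egr1 on its upper shoulder. In introns Dusp1 (1.74) lies in the upper tail and Egr1 (0.27) below the center.

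The labeled to total ratio was next followed over the labeling times. Dusp1 had ratios of 1.25 and 2.42 at 15 min in replicates 1 and 2, of 3.01 and 2.38 at 30 min, and of 2.10 and 2.63 at 60 min. Ier2 had ratios of 1.38 and 2.64 at 15 min, 3.14 and 2.44 at 30 min, and 2.92 and 4.05 at 60 min. In both genes the replicates lay furthest apart in relative terms at 15 min, where replicate 1 had the lower ratio.

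Egr1 had ratios of 0.994 and 1.18 at 15 min, 1.73 and 1.81 at 30 min, and 2.00 and 1.38 at 60 min. The pairs rest on the replicate numbers. Deviations of the labeled and total libraries sharing a number were correlated at -0.0359, 0.0746 and -0.236 at 15, 30 and 60 min. Whether the numbers are crossed at 60 min was not tested. The replicates of Egr1 were close at 15 and 30 min, and both 30 min ratios exceeded both 15 min ratios. Ier3 had ratios of 3.20 and 1.72 at 15 min, 3.35 and 3.09 at 30 min, and 0.975 and 5.50 at 60 min, so that its replicates were close at 30 min and were furthest apart at 60 min.

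In the fit with a mean for each fraction and time, 0 of 25318 units (0%) were called at any labeling time, and the members were no exception (limma, Benjamini-Hochberg adjusted p of at least 0.272 for the 4 genes). At an unadjusted p under 0.05 there were 2715, 2820 and 2835 units at 15, 30 and 60 min. Dusp1 had log2 fold changes of 0.80, 1.42 and 1.23, Ier2 of 0.91, 1.43 and 1.73, Egr1 of 0.11, 0.82 and 0.73, and Ier3 of 1.17, 1.61 and 1.18 at the 3 times. Dusp1, Ier2 and Egr1 had unadjusted p under 0.05 at 30 and at 60 min and not at 15 min, but the difference between the 60 and 15 min contrasts passed no test. For Egr1 that difference was 0.61 with an SE of 0.32 (limma, Benjamini-Hochberg adjusted p = 1), and 0 units were called, with 229 at an unadjusted p under 0.05. This is below the share of 0.05 that chance alone would give, so that the absence of calls does not show equal contrasts.

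**Figure D3:**
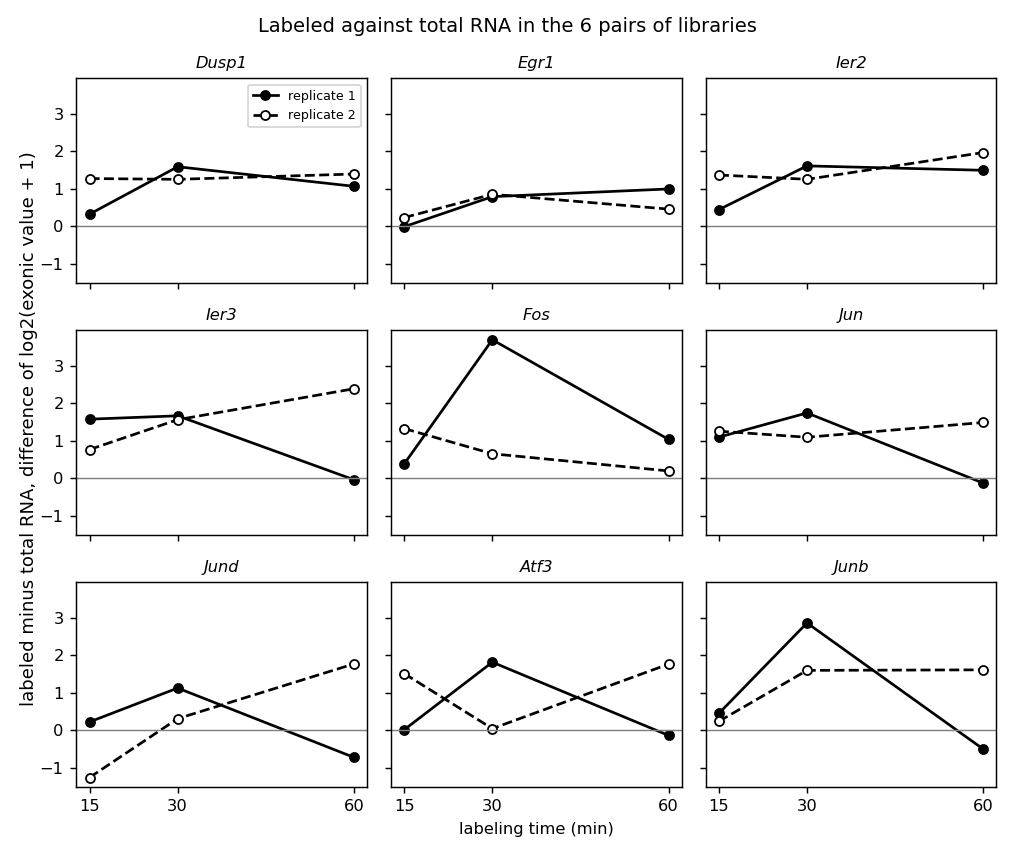
Difference of log2(exonic value + 1) between the labeled and the total library of the same replicate, against labeling time in min, for the 9 immediate early genes with exonic values, with filled symbols and solid lines for replicate 1 and open symbols and dashed lines for replicate 2. Dusp1, Ier2 and Fos lie above 0 in all 6 pairs. In Jun, Junb, Jund, Ier3 and Atf3 the lines diverge at 60 min, where replicate 1 lies below 0.

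Cells labeled for 60 min had been in 4sU for longer than those labeled for 15 min, and total RNA was examined for a change over that time. Egr1 in total RNA stood at 362 and 337 units after 15 min, 281 and 350 after 30 min, and 216 and 287 after 60 min. Both 60 min libraries were below both 15 min libraries. The log2 difference of 60 against 15 min was -0.48 with an SE of 0.23 (unadjusted p = 0.0610, limma, Benjamini-Hochberg adjusted p = 1). Dusp1 had a difference of -0.37, and Ier2 of -0.46 in total RNA, both with an adjusted p of 1. The replicates of Ier3 went opposite ways, by 1.18 in replicate 1 and -1.08 in replicate 2, so that its difference of 0.05 is not a sign of a steady level. In labeled RNA the differences were 0.06 for Dusp1, 0.37 for Ier2, 0.13 for Egr1 and 0.05 for Ier3, also with an adjusted p of 1, and only for Ier2 did both replicates have the same sign. No unit (0% of 25318) was called in either fraction, with 176 units in total and 252 in labeled RNA at an unadjusted p under 0.05. Both numbers are below the share of 0.05 that chance alone would give. The fit used the same estimate of the spread for labeled and total RNA. The absence of calls is therefore not a sign of steady levels.

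Introns stand for precursor RNA that has not been spliced. The introns of Dusp1 were higher in labeled RNA, with a 3.76-fold ratio of means. They ranged from 21.6 to 62.7 units in total RNA, with a median of 39.8, and from 35.2 to 280 in labeled RNA, with a median of 144. The labeled library of replicate 2 at 60 min lay within the range of total RNA, and the other 5 labeled libraries were above it. The log2 fold change was 1.74 with an SE of 0.41 (limma, Benjamini-Hochberg adjusted p = 0.00869), and labeled RNA was higher in 6 of 6 pairs, as it was for the introns of 29.2% of units. Among the introns of all 24023 units tested, 25.5% were called higher and 0.162% lower, and the value of Dusp1 lay above that of 98.0% of units. It was called under every alternative run, with a log2 fold change between 1.35 and 2.15. Of the deposited Dusp1 transcripts, 2 are annotated as retained introns, and these carried 31.0% and 28.7% of the exonic signal in labeled and 30.6% and 31.6% in total RNA, so that part of the intronic sequence is counted as exon in them.

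The introns of Egr1 ranged from 4.61 to 20.02 units in total RNA, with a median of 10.5, and from 0 to 49.1 in labeled RNA, with a median of 18.3. The labeled values spanned the whole range of total RNA. The extremes both came from labeled RNA at 60 min, where replicate 1 was at 49.1 and replicate 2 had no value. The log2 fold change of 0.27 (SE 0.69) did not pass the test (limma, Benjamini-Hochberg adjusted p = 0.775). It turned to -0.37 without the labeled library of replicate 1 at 60 min, and was 1.04 without that of replicate 2 (limma, Benjamini-Hochberg adjusted p = 0.0530). Without the replicate 2 labeled libraries of 15 and 60 min it was 1.21 (limma, Benjamini-Hochberg adjusted p = 0.0159). With replicate 2 alone it was -1.18 (limma, Benjamini-Hochberg adjusted p = 0.0226) and with replicate 1 alone 1.73 (limma, Benjamini-Hochberg adjusted p = 0.00564), so that each replicate was called in an opposite direction.

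The introns of Atf3 did not pass the filter, a mean intronic value of at least 5. They were listed at 0 in 4 of 6 total libraries and at 3.45 and 3.28 units in the others, at 15 min in replicate 1 and at 30 min in replicate 2, and ranged from 2.09 to 11.5 in labeled RNA, where every library had a value. Labeled RNA was higher in 6 of 6 pairs, as in 24.2% of units without the filter. Without it, 19.1% of units were called higher and 0.111% lower, and the log2 difference was 1.90 (limma without filter, Benjamini-Hochberg adjusted p = 0.0136). Introns of Fos had a value in 1 library and those of Fosb in 2, all under 3 units, and the 109-base intron of Ier3 was listed at 0 in all 12 libraries.

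**Figure D4:**
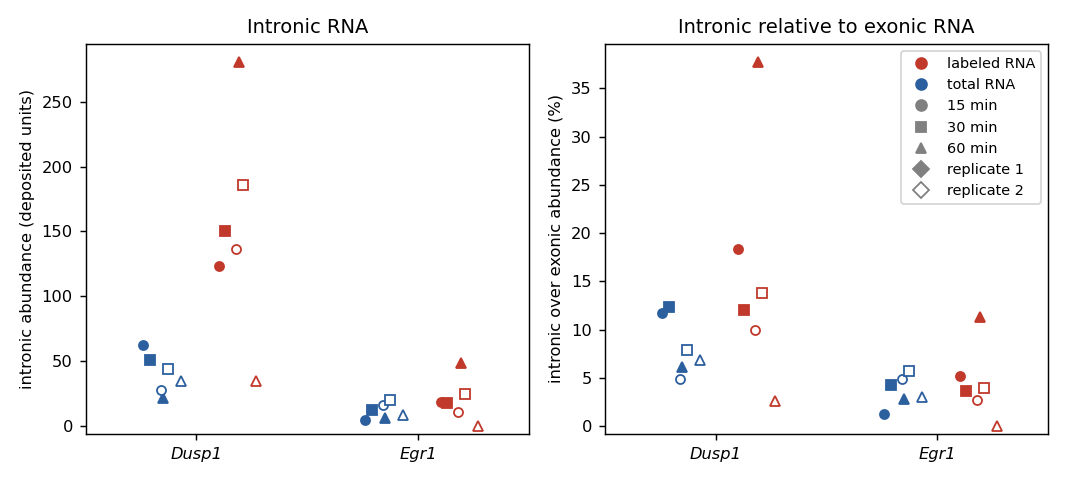
Intronic abundance in deposited units (left) and intronic over exonic abundance in % (right) for Dusp1 and Egr1 in each of the 6 labeled (red) and 6 total (blue) RNA libraries, with symbols for labeling time and filled and open symbols for replicates 1 and 2. For Dusp1 the share reached 37.7% in labeled RNA of replicate 1 at 60 min and 2.63% in that of replicate 2.

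Processing was described by intronic over exonic abundance, which falls as precursor is spliced. For Dusp1 the share was 15.8 ± 11.9% in labeled and 8.30 ± 3.06% in total RNA (SD, n = 6). Part of its intronic sequence is counted as exon in its retained-intron transcripts, which can lower this share. Labeled libraries ranged from 2.63% to 37.7% and total libraries from 4.86% to 12.3%, so that the labeled range enclosed that of total RNA. The log2 change of the ratio was 0.59 with an SE of 0.51 (limma, Benjamini-Hochberg adjusted p = 0.374). It was -0.11 without the labeled libraries of replicate 1 at 15 and 60 min, and 1.23 without those of replicate 2 (limma, Benjamini-Hochberg adjusted p = 0.00980), so that the call depended on which labeled libraries were used. Leaving out only the 60 min labeled library gave 0.12 for replicate 1 and 1.07 for replicate 2 (limma, Benjamini-Hochberg adjusted p = 0.0542 for the latter). For Egr1 the share was 4.48 ± 3.80% in labeled and 3.67 ± 1.61% in total RNA, with a log2 change of -0.28 (SE 0.69; limma, Benjamini-Hochberg adjusted p = 0.753). Across 15859 units with both values, 19.5% had a higher ratio in labeled RNA and 0.189% a lower one. The change of Egr1 lay above that of only 2.56% of units, but without the labeled library of replicate 2 at 60 min, which had no intronic value, it was 0.49.

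A rate of processing was also computed as labeled exonic RNA made per hour divided by intronic RNA in total RNA, from the means of both replicates and with no test. Dusp1 had rates of 90.6, 54.3 and 36.7 per hour at 15, 30 and 60 min, and Egr1 of 144, 69.7 and 55.9. The medians over all units with a rate were 16.9, 7.14 and 4.11 per hour, a fall close to the increase in labeling time by which labeled RNA is divided. At the 3 times Dusp1 lay above 92.1%, 95.4% and 96.7% of units and Egr1 above 95.9%, 97.0% and 98.2%. Intronic RNA at low level in the denominator gives a high rate, and for Egr1 its mean in total RNA was 11.3 ± 6.02 units (SD, n = 6). For Dusp1, intronic sequence counted as exon in its retained-intron transcripts can also raise the rate, by an amount that was not tested. Rates were not available for the other members, whose introns are absent from the table or have no value in at least 1 total library of each labeling time.

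Labeled exonic RNA per hour over total exonic RNA was computed in the same way and is available for members without introns too. Ier2 had 8.29, 5.55 and 3.53 per hour at 15, 30 and 60 min, above 84.3%, 96.0% and 97.5% of units. Dusp1 had 7.41, 5.30 and 2.41, above 79.5%, 95.3% and 91.3%. Egr1 had 4.33, 3.55 and 1.64, and lay below the median of 4.61 over all units at 15 min and above 86.1% and 77.0% of units at 30 and 60 min. Jund was lowest among the members at 15 min, at 2.77 per hour, above 8.88% of units, and in the upper part of all units at 30 and 60 min (3.34 and 1.96 per hour, above 83.8% and 84.6%).

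The neighbors of these genes in the pathway were taken from lists. Of 40 other immediate early genes, 25 passed the filter, and labeled RNA was higher for 10 of these and lower for 0, with a median log2 fold change of 0.55 against -0.01 for all units, of which 6.38% were higher. The filter favors this direction, since 5 of the 25, and 3 of the 10 called, had a mean in total RNA under 20 and passed through their labeled libraries. Gadd45g, which encodes a stress sensor upstream of p38 and JNK, stood at 36.2 ± 16.4 units in labeled and 9.99 ± 3.51 in total RNA (SD, n = 6), a log2 fold change of 1.71 (limma, Benjamini-Hochberg adjusted p = 0.00779). Nfkbia, the inhibitor of NF-kappaB, had a log2 fold change of 1.21 (limma, Benjamini-Hochberg adjusted p = 0.0138), and Btg2, an antiproliferative partner of the CCR4-NOT deadenylase, one of 1.11 (limma, Benjamini-Hochberg adjusted p = 0.00368). Gadd45g and Btg2 are among these genes with a total mean under 20. Introns of 17 of the listed genes were tested, and 12 were higher in labeled RNA, where 25.5% of all units were.

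Of 13 other AP-1 subunits, 5 passed the filter, as 6 units since Atf7 is annotated as 2 genes. None of the 6 units (0) was called in either direction by limma, beside 6.38% higher and 9.49% lower among all units, and the median log2 fold change was 0.21. In introns 2 of 7 units were higher, near the 25.5% of all units. Fosl1 and Fosl2, the remaining Fos family members, were at 2.75 ± 0.932 and 1.96 ± 0.430 units in labeled RNA and did not pass the filter. All 20 genes listed as regulators of immediate early transcription were tested, and whether each acts on these promoters was not examined. Labeled RNA was higher for 0 and lower for 6 of them, where 6.38% and 9.49% of all units were higher and lower, and the median was -0.23. The 6 include Tcf3, whose place in the list is uncertain. The largest differences were those of Rps6ka1, which encodes the kinase RSK1 (-0.73; limma, Benjamini-Hochberg adjusted p = 0.0124), and Creb1 (-0.72; limma, Benjamini-Hochberg adjusted p = 0.0142). Of 9 listed factors that act on AU-rich mRNA, 0 were higher and 4 lower, beside the same shares of all units, with a median of -0.47. Khsrp, a decay-promoting binding protein (-0.70; limma, Benjamini-Hochberg adjusted p = 0.0294), Elavl1, which encodes the stabilizing protein HuR (-0.62; limma, Benjamini-Hochberg adjusted p = 0.0115), and Hnrnpd, which encodes AUF1 (-0.55; limma, Benjamini-Hochberg adjusted p = 0.00402), differed most among the 9. Zfp36 and Zfp36l1, which also act on AU-rich mRNA, were listed with the other immediate early genes instead. Their changes were positive and not called, 0.59 and 0.34 (limma, Benjamini-Hochberg adjusted p = 0.256 and 0.171).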

How the data were processed

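The authors removed rRNA reads with STAR 2.5.0, aligned the others to exonic and intronic sequences and quantified them with RSEM. The submitters' processing notes name mm10. The unit of the deposited abundances is not named, and they were treated as neither counts nor TPM. They are scaled to 1 total with values of 1 or less missing. How they were scaled is not given in the sources used here, and no test on counts was run. Values were summed over the transcripts of each GENCODE M1 gene (mm9), and coordinates are from that annotation. Units with a mean of at least 20 (exonic) or 5 (intronic) were tested on log2(value + 1) by limma (version 3.58.1, R version 4.3.3), with missing values as 0, a mean-variance trend, two-sided, and Benjamini-Hochberg adjustment over all units at 0.05. The fit was tested on simulated independent libraries with 200 changed units. A log2 change of 1 was recovered in 45 of 100 units for exons, 5 for introns and 5 for the ratio. With exons at 15 min alone, 2 libraries against 2, it was recovered in 3 of 100. For a log2 change of 2 these numbers were 87, 76, 81 and 40. A difference that passed no test is therefore not shown to be absent. Other steps used Python 3.11.15. The paper describes the 2 replicates as a divided culture, and the labels pair libraries by replicate number. The main fit had no replicate block and took the 6 libraries of a fraction as separate, although they come from 2 cultures. Its p-values therefore measure the spread between libraries after a common effect of labeling time is taken out, and not the spread between cultures. Culture, pull-down and any change of the difference with time are mixed in that spread. Within each time, the deviations of the labeled and the total library that share a number had correlations of -0.0359, 0.0746 and -0.236 at 15, 30 and 60 min. The members, gene lists and tests were chosen with earlier results of these data known. All 10 members are named, and of other lists the 3 called genes with the largest change, of which 1 is not reported here.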

Additional observations from a re-analysis of the deposited data

Results flagged for a closer look

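Of 27 groups of 6 libraries examined, 6 held a library far from the other 5 relative to the range of the group. The 1.35 expected by chance holds for normally distributed values. Missing values set to 0 are not, so that the 2 numbers cannot be compared. Jun in labeled RNA of replicate 1 at 60 min stood at 7.12 units, below the other labeled libraries. Junb in total RNA of replicate 1 at 30 min had no exonic value and was listed at 0. Introns of Egr1 were listed at 0 in labeled RNA of replicate 2 at 60 min. The remaining 3 groups had a single intronic value just above the cutoff of the table and 0 elsewhere, namely Fos in labeled RNA of replicate 1 at 60 min (2.52), Fosb in labeled RNA of replicate 2 at 30 min (1.21) and Fosb in total RNA of replicate 2 at 15 min (1.34).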

How the results depend on the processing

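The number of units called between labeled and total RNA was 4017 for exons, 6161 for introns and 3126 for their ratio. It was 2442 for exons with replicate as a block (2335 of them shared), where 3 of the 4 members remained called, 7888 and 13001 for exons and introns of single transcripts, and 0 to 5479, 2780 to 11164 and 522 to 8512 when a replicate or a library was left out. Without the labeled libraries of replicate 2 at 15 and 60 min, whose intronic shares lay within those of total RNA, it was 7460, 20365 and 12500, and the ratio of Egr1 was 0.62. The members called then numbered 0 to 4 for exons, 1 to 2 for introns and 0 to 1 for the ratio, and 2 for introns without the filter. The contrasts per time and of 60 against 15 min called 0 units. Without the filter they called 12 at 15 min, 21 at 30 min, 3 at 60 min, 10 in the difference of 60 and 15 min, 5 in labeled and 10 in total RNA. Without the trend the numbers were 9, 9, 1, 8, 1 and 7, with a pseudocount of 10 they were 5, 11, 1 and, in total RNA, 7, and with missing values as 1 they were 4 at 30 min. Among tested differences, the direction turned for the ratio of Dusp1 without the labeled libraries of replicate 1 at 15 and 60 min (-0.11), for that of Egr1 without replicate 2 (1.13, against -1.70 without replicate 1) or its labeled library at 60 min (0.49), for introns of Egr1 without replicate 1 (-1.18, against 1.73 without replicate 2), its labeled library at 60 min (-0.37) or both of those labeled libraries (-0.63), and for Ier3 at 60 against 15 min in total RNA with a pseudocount of 10 (-0.021). With 1 replicate left the contrasts per time and between times have no test, and Ier3, without replicates 1 and 2 respectively, was 2.39 and -0.04 at 60 min, 1.62 and -1.61 in the difference of 60 and 15 min, and -1.08 and 1.18 in total RNA. Dusp1 and Egr1 at 60 against 15 min in labeled RNA were -0.038 and -0.0036 without replicate 1. A block with the numbers crossed at 60 min called 4718 units. It kept the call of Egr1. This pairing was chosen after seeing the data. So was the leaving out of single libraries, or of the 2 labeled libraries of either replicate at 15 and 60 min. The block ended no other call of a member than that of Egr1. The causes were not tested. Depth is unknown, and values near the cutoff of 1 limit what can be said of Fos, Junb, Jund and Atf3.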

Other observations

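The 5 units whose profile over the 12 libraries was most like the mean standardized profile of Dusp1, Egr1, Ier2 and Ier3, among 25314 others, were Ahnak2 (Pearson r = 0.943), Dpp7 (0.943), Slc20a1 (0.941), Fam203a (0.936) and the transcript ENSMUST00000189909 (0.936). The libraries share their division into labeled and total RNA, and all 5 units were higher in labeled RNA. Slc20a1, a sodium-dependent phosphate transporter, was the most abundant of them, with means of 2786 units in labeled and 2088 in total RNA.

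Of 6 stress-induced chaperone genes, 4 passed the filter, with a median log2 fold change of -0.34. Between labeled and total RNA 0 were called in either direction, beside 6.38% higher and 9.49% lower among all units. The inducible Hspa1a stood at 15.2 ± 4.03 units in labeled and 13.6 ± 3.53 in total RNA (SD, n = 6), below the filter. Among the embryonic stem cell markers, Pou5f1 was lower in labeled RNA (log2 fold change -0.50; limma, Benjamini-Hochberg adjusted p = 0.00587), and among the fibroblast markers Vim was lower (-0.80; limma, Benjamini-Hochberg adjusted p = 0.0102).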
